A study of Homo sapiens with 51 samples.

Results

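TNFSF10, TNFRSF10A, TNFRSF10B, CFLAR, CASP4 and CASP8 are 6 genes of the death receptor pathway. They were taken by symbol, as 6 of the 24033 genes in a deposited expression matrix of human mammary cells, and followed over its 51 libraries. The libraries are total RNA from 17 groups with 3 libraries each. HMLE is an immortalised epithelial line from human breast, and its derivative HMLE-TWIST1 has added TWIST1, a transcription factor that drives epithelial to mesenchymal transition. The derivative was exposed to chaetocin, a fungal metabolite that inhibits histone H3 lysine 9 methyltransferases, at 100, 150, 200 or 500 nM for 48 h and taken at day 2. A further HMLE-TWIST1 group received 80 nM chaetocin for 15 h and then fresh medium for 48 h, and was taken at day 4. Both lines were transfected with DsiRNA duplexes against SUV39H1 and SUV39H2 (knockdown) or with a scrambled duplex (scramble), and were taken after 48 h (day 2) or after 48 h more (day 4). DMSO cells of both lines were taken at day 2 and day 4. Both lines grew in the same mixed mammary epithelial medium. Nothing in the sample records says that the 3 libraries of a group came from separate cultures, so p-values measure the spread between these libraries, which may be technical.

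TNFSF10 encodes TRAIL, a ligand that binds the death receptors TRAIL-R1 (gene TNFRSF10A) and TRAIL-R2 (gene TNFRSF10B) on target cells. The bound receptors gather the adaptor FADD and the initiator caspase CASP8, which starts apoptosis by cutting executioner caspases. CFLAR encodes c-FLIP, a relative of CASP8 that enters the same complex and limits its activation. CASP4 belongs to a different branch: it is an inflammatory caspase that senses bacterial lipopolysaccharide in the cytosol and cuts gasdermin D in pyroptosis. TNFSF10 is known as an interferon-induced gene in many cell types, and TNFRSF10B as a target of p53 and of the endoplasmic reticulum stress response.

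Libraries held 7897060 to 15662385 reads in listed genes. TWIST1 averaged 234.5 to 609.6 CPM (reads scaled to library size) in the HMLE-TWIST1 groups and 5.11 to 14.0 CPM in the HMLE groups, so it followed the labels. With knockdown SUV39H1 changed by -1.39 to -0.88 on the log2 scale over the 4 settings of line and day, and SUV39H2 by -1.2 to -0.42, and all passed. HMLE-TWIST1 is labelled as mammary epithelial, yet CDH1 had a median of 0.223 CPM in its groups, against 675 CPM in the HMLE groups, and TP63 had 0.317 against 449 CPM. The 10 mammary epithelial markers summed to 135 to 440 CPM in HMLE-TWIST1 groups and 10700 to 25600 CPM in HMLE groups. The 3 of 8 leukocyte markers that the matrix lists summed to at most 16.5 CPM in any library. In bulk RNA of this kind, fewer expressing cells and less RNA per cell cannot be told apart. Chaetocin libraries of one dose differed by number: TNFSF10 reads and mesenchymal markers were lowest in number 1 and highest in number 3 at each of the 4 doses. Changes of the members at these doses are therefore given also without the 4 libraries numbered 1. That choice was made after seeing the data, TNFSF10 included, so p-values of those fits are descriptive and no independent test.

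Levels below are RPKM (reads scaled to gene length and library size). The lengths, recovered from the deposited values, run from 2951 bases for TNFRSF10A to 22528 bases for CFLAR. The order of genes by RPKM depends on them, so levels are compared within a gene. Fold changes are log2 differences of CPM with their standard error (SE) from limma. Groups of the same experiment were fitted together, so an SE and its p-value also draw on the spread of groups outside the comparison. A gene passed when its Benjamini-Hochberg adjusted p, over all genes tested in that comparison, was under 0.05. In the plot of levels, the members differed most in how far they moved. TNFSF10 spanned 291-fold between its highest and lowest group means, TNFRSF10A 8.95-fold, CFLAR 5.3-fold, CASP4 3.98-fold, CASP8 2.12-fold and TNFRSF10B 2.05-fold. TNFSF10 held as few as 14 reads in a chaetocin library, whereas the lowest count of the other members was 51 reads, in TNFRSF10A.

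**Figure D1:**
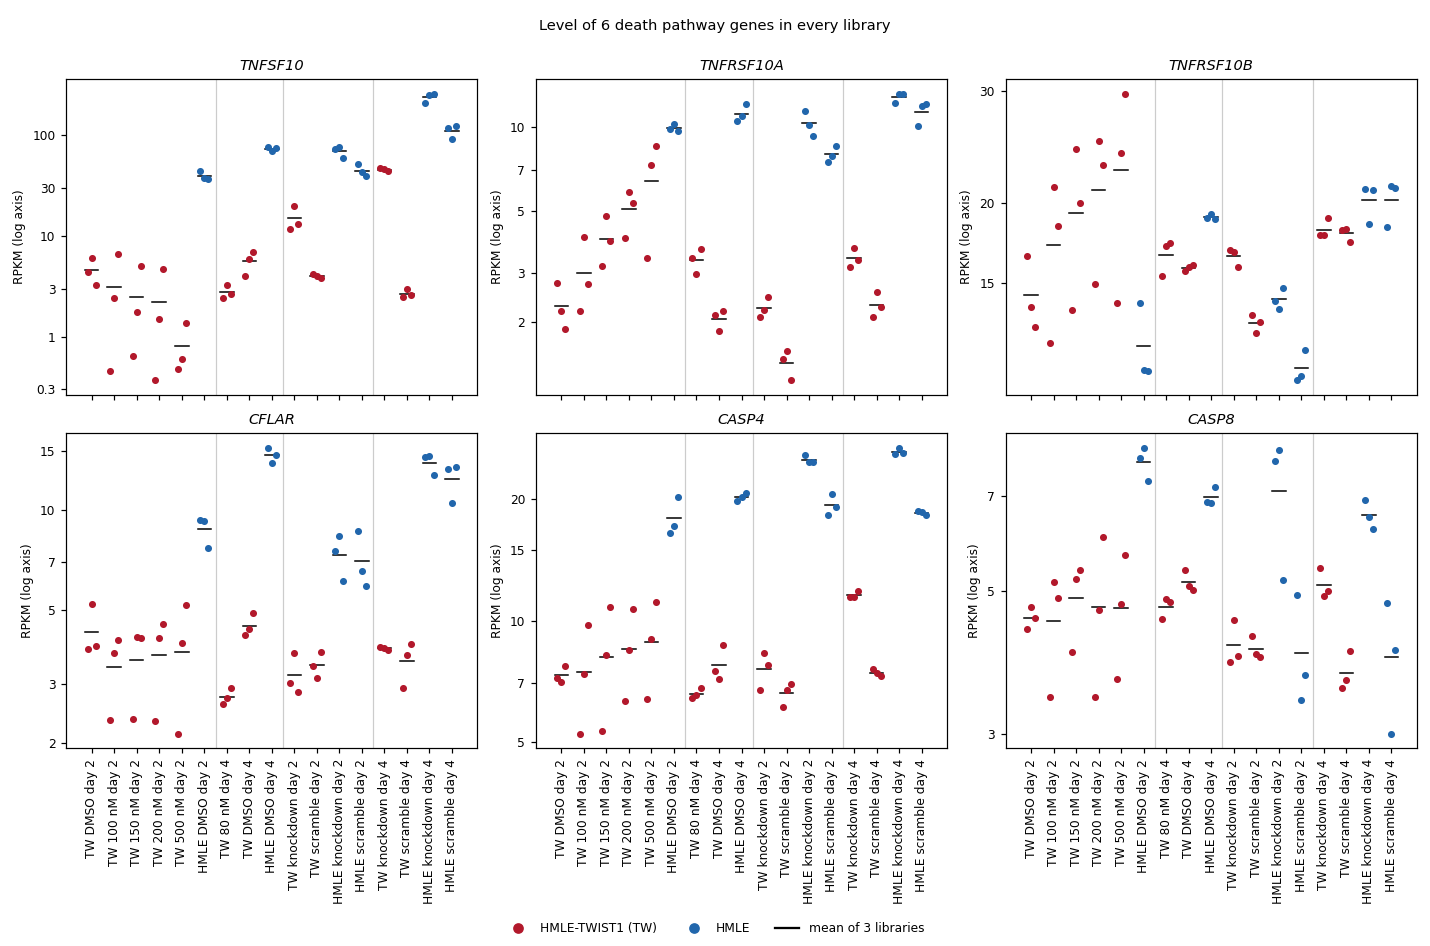
RPKM on a log axis for the 6 genes in 17 groups, with red points for HMLE-TWIST1 libraries, blue points for HMLE libraries and a bar at the mean of 3. TNFSF10, TNFRSF10A, CFLAR and CASP4 separate the lines in the control groups, and TNFRSF10B stays between 10.5 and 29.7 RPKM in every library. TNFSF10 of HMLE-TWIST1 knockdown cells at day 4 overlaps the HMLE controls of day 2 and lies below every HMLE library of day 4.

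Read by comparison, knockdown moved members upward and the line moved them downward. In knockdown against scramble, 3 of 6 members rose in HMLE-TWIST1 cells at day 2 (15.5% of all tested genes passed in either direction), 5 rose in HMLE at day 2 (29.2% of genes), 4 rose in HMLE-TWIST1 at day 4 (38.3%) and 3 rose in HMLE at day 4 (26.5%). None fell in these 4 comparisons. Chaetocin against DMSO at day 2 moved few members: 0 of 6 passed at 100 nM (23.2% of genes), TNFRSF10A alone rose at 150 nM (33.9%) and 200 nM (39.4%), and at 500 nM TNFRSF10A rose and TNFSF10 fell (50.1%). After 80 nM and washout, 1 member rose and 3 fell (36.5% of genes). Over the slope across the 4 doses 1 member passed (16.4% of genes).

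HMLE-TWIST1 cells had less of most members than HMLE cells. In DMSO at day 2, 5 members were lower (47.2% of all genes passed), in DMSO at day 4 all 6 (67.1%), in scramble at day 2 4 were lower and 1 higher (68.9%), and in scramble at day 4 5 were lower (74.3%). The knockdown effect differed between the lines past the threshold for 1 member at day 2 (12.3% of genes) and for 1 at day 4 (23.0%), TNFSF10 each time. It differed between the days for 3 members in HMLE-TWIST1 (19.9% of genes) and for 1 in HMLE (17.5%). Between days in scramble cells 4 members passed in HMLE-TWIST1 (28.9% of genes) and 4 in HMLE (42.3%). Comparisons that share control libraries are not independent of each other.

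**Figure D2:**
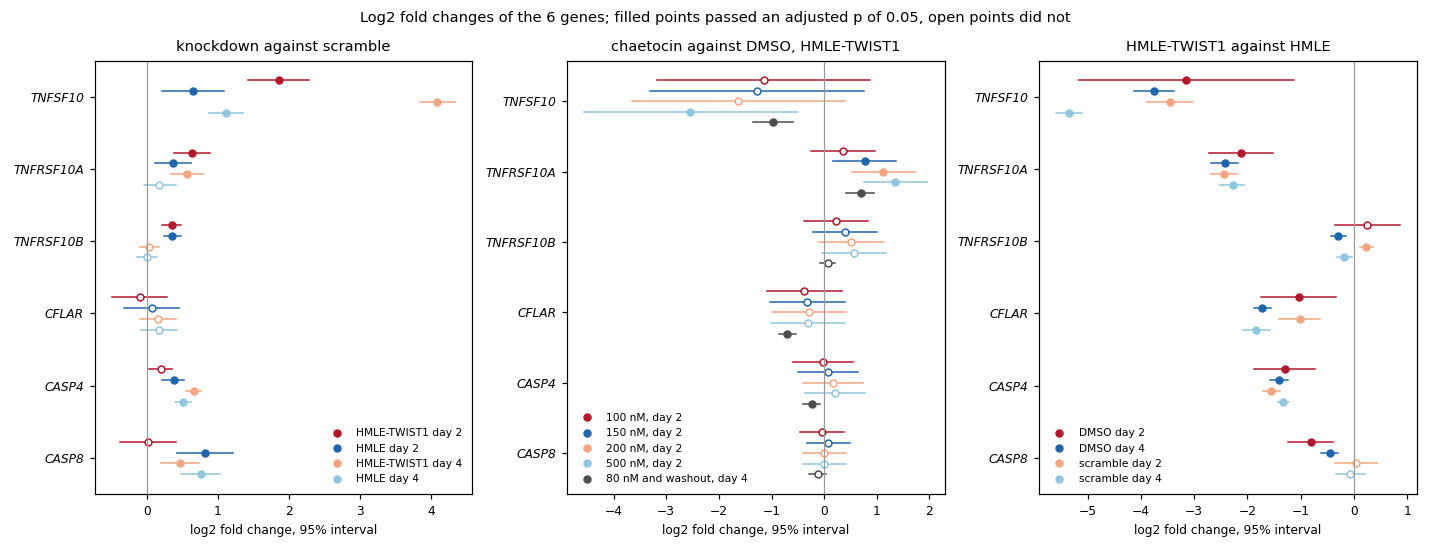
Log2 fold changes of the 6 genes with 95% intervals, for knockdown against scramble, chaetocin against DMSO and HMLE-TWIST1 against HMLE; filled points passed an adjusted p of 0.05. The point farthest right is TNFSF10 in HMLE-TWIST1 knockdown cells at day 4, at 4.09, and the farthest left is TNFSF10 between the lines in scramble at day 4, at -5.35.

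TRAIL itself, TNFSF10, rose with knockdown in both lines and at both days, and fell with chaetocin at 500 nM and after the 80 nM washout. The rise was larger in HMLE-TWIST1 cells on the log2 scale, though not in RPKM, where HMLE began higher. Its start region is printed here with those of CASP8 and CASP4, which rose with knockdown in HMLE at both days and in HMLE-TWIST1 at day 4. In HMLE-TWIST1 at day 2 TNFSF10 rose and neither caspase passed. The windows run from 250 bases before to 50 bases after the annotated start (RefSeq, build GRCh38.p14), and 4 of the 6 members have one that could be shown. Capitals mark matches to the interferon response element core GAAANNGAAA and to the gamma-activated site TTCNNNGAA, sought on both strands. TNFSF10 starts on the minus strand of chromosome 3 (chr3:172523381-172523680), CASP8 on the plus strand of chromosome 2 (chr2:201233213-201233512), and CASP4 on the minus strand of chromosome 11 (chr11:104968525-104968824).
TNFSF10: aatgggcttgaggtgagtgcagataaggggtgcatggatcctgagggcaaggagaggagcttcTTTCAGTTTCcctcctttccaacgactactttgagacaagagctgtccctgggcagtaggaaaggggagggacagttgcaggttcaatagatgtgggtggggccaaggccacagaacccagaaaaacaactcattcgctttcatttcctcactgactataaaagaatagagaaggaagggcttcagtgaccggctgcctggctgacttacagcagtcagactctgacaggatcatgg
CASP8: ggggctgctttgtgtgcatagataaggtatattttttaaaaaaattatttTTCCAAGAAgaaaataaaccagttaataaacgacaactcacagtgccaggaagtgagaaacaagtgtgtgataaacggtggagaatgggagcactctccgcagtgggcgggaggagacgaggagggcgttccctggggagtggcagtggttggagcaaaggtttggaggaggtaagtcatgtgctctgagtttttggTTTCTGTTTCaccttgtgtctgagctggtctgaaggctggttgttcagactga
CASP4: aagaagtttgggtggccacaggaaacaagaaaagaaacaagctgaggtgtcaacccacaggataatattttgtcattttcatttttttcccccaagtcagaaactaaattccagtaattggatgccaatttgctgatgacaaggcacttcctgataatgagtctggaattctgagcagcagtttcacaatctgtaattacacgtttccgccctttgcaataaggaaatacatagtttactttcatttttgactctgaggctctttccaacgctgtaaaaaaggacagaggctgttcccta
The interferon core was present in 3.57% of 35116 windows in the table and the gamma-activated site in 7.66%. TNFSF10 held 1 core on the opposite strand, at bases -187 to -178 from the start. The first of 3 CASP8 windows held 1 core, also on the opposite strand, at -3 to 7, and 1 gamma-activated site, at -200 to -192. The CASP4 window held neither, and neither did the 4 CFLAR windows or the other 2 CASP8 windows. The E box CANNTG, the site type bound by TWIST1, was in 68.7% of all windows, in the TNFSF10 window and not in that of CASP4. These matches describe letters in a window and were not measured as sites here.

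In HMLE-TWIST1 knockdown cells at day 4 the 3 libraries had 47.0, 45.6 and 43.6 RPKM of TNFSF10, against 2.47, 2.94 and 2.57 RPKM in scramble. Every knockdown library lay far above every scramble library, a rise of 4.09 (SE 0.11, adjusted p = 2.9e-12, limma), or 17.1-fold. At day 2 the same line had 11.8, 19.8 and 13.2 RPKM with knockdown and 4.17, 3.99 and 3.79 RPKM with scramble. No libraries overlapped, and the change of 1.86 (SE 0.19, adjusted p = 0.000156) was 2.22 smaller than that of day 4 (SE 0.24, adjusted p = 1.62e-06). Scramble cells of this line differed between days as well, with a change of -0.58 at day 4 against day 2 (adjusted p = 0.0141). That call was lost with voom precision weights (adjusted p = 0.223) and without scramble library 1 of day 2 (0.0516) or of day 4 (0.0554).

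HMLE cells began from a higher level. HMLE knockdown at day 4 gave 208, 249 and 256 RPKM of TNFSF10, against 116, 91.1 and 124 RPKM in scramble. All knockdown libraries were above all scramble libraries, a rise of 1.12 (SE 0.11, adjusted p = 5.87e-06). At day 2 HMLE knockdown gave 73.2, 76.8 and 59.0 RPKM and scramble 51.3, 42.9 and 38.9 RPKM. The groups did not overlap at day 2, but the change of 0.65 (SE 0.19, adjusted p = 0.0304) was not past the threshold without scramble library 2 or 3, or without knockdown library 1 or 2, when adjusted p was 0.0802 to 0.0948. Mammary epithelial markers summed to 13400 to 14500 CPM in the same HMLE knockdown libraries of day 2 and 23300 to 24800 CPM in scramble, and at day 4 to 19700 to 22400 CPM with knockdown and 24200 to 25600 CPM in scramble. Their part in the changes of HMLE members with knockdown was not tested. The effect in HMLE-TWIST1 exceeded that in HMLE by 2.98 at day 4 (SE 0.16, adjusted p = 4.82e-08) and by 1.2 at day 2 (SE 0.27, adjusted p = 0.02). The day 2 difference had an adjusted p of 0.0509 without HMLE-TWIST1 scramble library 3 and 0.0505 with voom weights.

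The knockdown level of HMLE-TWIST1 at day 4 (45.4 ± 1.71 RPKM, SD, n = 3) overlapped that of HMLE scramble at day 2, which had 44.4 ± 6.33 RPKM. It remained below HMLE scramble of the same day, at 110 ± 17.1 RPKM. Without knockdown TNFSF10 was lower in HMLE-TWIST1 than in HMLE in all 4 control settings. The DMSO cells of day 2 had 4.34, 6.07 and 3.29 RPKM in HMLE-TWIST1 and 44.4, 37.1 and 37.0 RPKM in HMLE, a change of -3.15 (SE 0.94, adjusted p = 0.0126). The chaetocin libraries of day 2 were in the same fit, and their comparisons with DMSO have the same SE. Over the alternative limma fits the adjusted p of this line difference was 1.33e-06 to 0.0427. The DMSO cells of day 4 had 4.03, 5.96 and 6.86 RPKM in HMLE-TWIST1 and 76.9, 69.5 and 73.8 RPKM in HMLE, a change of -3.75 (SE 0.17, adjusted p = 2.23e-09). No library of either line reached the range of the other in these groups. In scramble the change was -3.46 at day 2 and -5.35 at day 4. HMLE scramble itself was higher at day 4 than at day 2, by 1.31 (SE 0.17, adjusted p = 4.76e-06), beside the change of -0.58 in HMLE-TWIST1 scramble.

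TNFSF10 was not higher past the threshold at any chaetocin dose. At 500 nM the libraries had 0.474, 0.595 and 1.38 RPKM, from 18, 21 and 50 reads, and every one was below the DMSO libraries of day 2 (4.34, 6.07 and 3.29 RPKM). The change was -2.54 (SE 0.94, adjusted p = 0.037), with an adjusted p of 0.0532 to 0.105 without any 1 of DMSO libraries 1, 2 and 3 or 500 nM libraries 1 and 2, and of 0.0503 with voom weights. Lower doses did not pass and their libraries were far apart. At 100 nM they had 0.458, 2.40 and 6.54 RPKM, at 150 nM 0.648, 1.78 and 5.02 RPKM, and at 200 nM 0.371, 1.49 and 4.74 RPKM. Library 1 was the lowest and library 3 the highest at each dose, so each group ran from below all DMSO libraries into their range, and at 100 nM above it.

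The same order by number appeared in other genes of these libraries. Mesenchymal markers summed to 9640, 15700 and 20400 CPM in libraries 1, 2 and 3 at 100 nM and to 7210, 8410 and 9560 CPM at 500 nM, against 33100 to 39900 CPM in the DMSO libraries of that line at day 2. Their part in the TNFSF10 result was not tested. Per doubling of dose TNFSF10 changed by -0.63 (SE 0.41, adjusted p = 0.314), and by the same -0.63 with an adjusted p of 0.00372 when the library number was fitted as a block. Without the 4 libraries numbered 1 the slope was -0.92 (adjusted p = 0.0316) and the changes at 100, 150, 200 and 500 nM were -0.15, -0.57, -0.74 and -2.25, the last with an adjusted p of 0.0122. Those libraries had the lowest TNFSF10 level at each dose and were left out after seeing the data, so these p-values are descriptive. Doses and DMSO lack different sets of genes in the table and were taken as separate parts of it, an inference rather than a label. For 100 to 500 nM against DMSO the part and the treatment cannot be told apart.

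The 80 nM washout lies inside a single part. HMLE-TWIST1 cells had 2.40, 3.29 and 2.63 RPKM of TNFSF10 after 80 nM, against 4.03, 5.96 and 6.86 RPKM in DMSO of day 4. All treated libraries were lower, a change of -0.98 (SE 0.17, adjusted p = 0.00113). Mesenchymal markers summed to 15000 to 22200 CPM in the treated libraries and 30900 to 38700 CPM in DMSO. With knockdown at day 4 in the same line they summed to 14500 to 14600 CPM, against 23000 to 25000 CPM in scramble. Their part in the TNFSF10 changes was not tested.

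**Figure D3:**
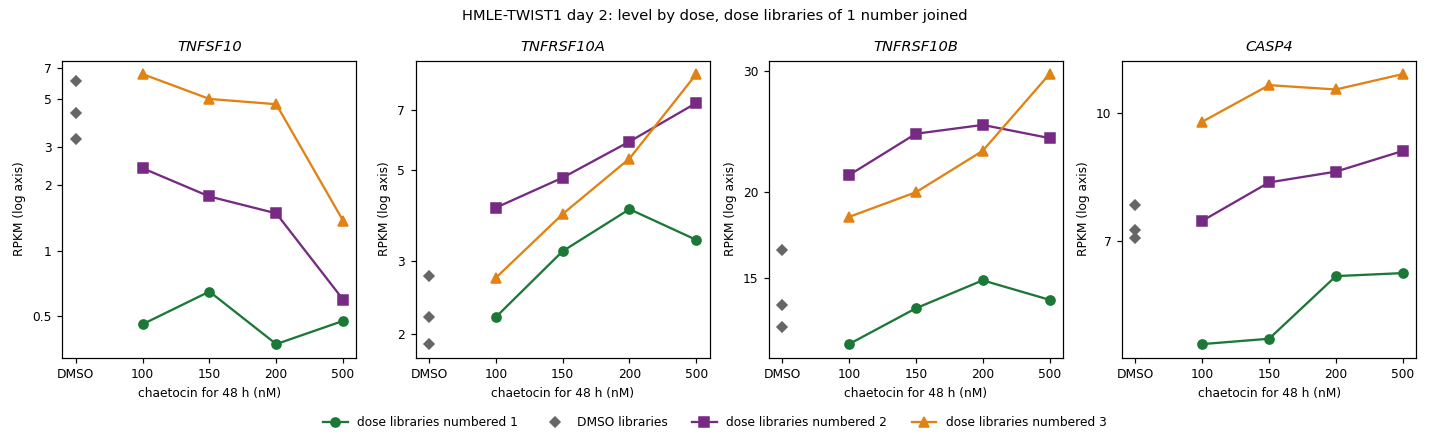
RPKM on a log axis of TNFSF10, TNFRSF10A, TNFRSF10B and CASP4 in HMLE-TWIST1 cells of day 2 by chaetocin dose in nM (categories equally spaced), with DMSO as grey diamonds and dose libraries of one number joined by lines. For TNFSF10 the lines of numbers 1, 2 and 3 lie apart at 100 to 200 nM (0.371 to 6.54 RPKM), while TNFRSF10A of all 3 numbers is above DMSO from 150 nM.

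TNFRSF10A, encoding TRAIL-R1, rose with chaetocin from 150 nM, after the 80 nM washout, and with knockdown in 3 of 4 settings. HMLE-TWIST1 cells at 500 nM had 3.38, 7.27 and 8.55 RPKM, and at 200 nM 4.01, 5.86 and 5.33 RPKM, against 2.76, 2.19 and 1.89 RPKM in DMSO. Every library of both doses was above every DMSO library, by 1.35 at 500 nM (SE 0.29, adjusted p = 0.00092) and 1.12 at 200 nM (SE 0.29, adjusted p = 0.00534). At 150 nM the libraries had 3.17, 4.79 and 3.90 RPKM, also above DMSO. That change of 0.77 (SE 0.29, adjusted p = 0.0474) was lost without any of DMSO libraries 1, 2 and 3 or 150 nM libraries 2 and 3 (adjusted p 0.0548 to 0.176), with voom weights (0.0725) and with median of ratios scaling (0.0502). At 100 nM the libraries had 2.19, 4.05 and 2.73 RPKM and overlapped DMSO, a change of 0.35 (adjusted p = 0.397).

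Without the libraries numbered 1, the TNFRSF10A changes at 100, 150, 200 and 500 nM were 0.55, 0.92, 1.27 and 1.75, and the lowest dose had an adjusted p of 0.038. Its slope per doubling of dose was 0.41 (SE 0.13, adjusted p = 0.048), and 0.50 (adjusted p = 0.00365) without them. The slope was over the threshold without any single library other than 500 nM library 1 (adjusted p 0.0501 to 0.177), and with voom weights, a prior count of 0.5 or the deposited log2 values (0.0503 to 0.0628). After the 80 nM washout TNFRSF10A had 3.40, 2.98 and 3.65 RPKM, against 2.11, 1.86 and 2.19 RPKM in DMSO of day 4. Both groups stayed apart, and the change was 0.69 (SE 0.12, adjusted p = 0.000586).

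Knockdown raised TNFRSF10A in HMLE-TWIST1 cells to 3.14, 3.68 and 3.34 RPKM at day 4, against 2.08, 2.57 and 2.27 RPKM in scramble, a change of 0.57 (SE 0.11, adjusted p = 0.000422). At day 2 the same line had 2.08, 2.21 and 2.45 RPKM with knockdown and 1.48, 1.57 and 1.24 RPKM with scramble, a change of 0.64 (SE 0.12, adjusted p = 0.000993). Neither pair of groups overlapped. In HMLE at day 2 knockdown gave 11.4, 10.2 and 9.28 RPKM and scramble 7.47, 7.85 and 8.55 RPKM, a change of 0.37 (SE 0.12, adjusted p = 0.0268). This call was lost without scramble library 1 or 2 or knockdown library 1 or 2 (adjusted p 0.0659 to 0.141). At day 4 HMLE knockdown had 12.2, 13.1 and 13.1 RPKM and scramble 10.1, 11.9 and 12.1 RPKM, and the change of 0.18 did not pass (adjusted p = 0.235). The effect differed between the lines by 0.39 at day 4 (SE 0.15, adjusted p = 0.08), with an adjusted p of 0.0483 when the library number was fitted as a block.

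Between the lines TNFRSF10A was lower in HMLE-TWIST1 in every control setting, with changes of -2.44 to -2.12 on the log2 scale. In DMSO of day 2 it had 2.76, 2.19 and 1.89 RPKM in HMLE-TWIST1 and 9.82, 10.2 and 9.63 RPKM in HMLE (SE 0.29, adjusted p = 7.46e-06). The highest HMLE-TWIST1 level, in 500 nM chaetocin (6.40 ± 2.69 RPKM, n = 3), came nearest to the lowest HMLE group, scramble of day 2 (7.96 ± 0.545 RPKM, n = 3), and their libraries overlapped. Scramble cells had more TNFRSF10A at day 4 than at day 2 in both lines, by 0.67 in HMLE-TWIST1 and 0.50 in HMLE.

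TNFRSF10B, encoding TRAIL-R2, had the smallest span over groups and did not separate the lines in a single direction. HMLE-TWIST1 had 13.35, 12.50 and 13.02 RPKM in scramble of day 2 and HMLE 10.5, 10.7 and 11.8 RPKM, a change of 0.23 (SE 0.06, adjusted p = 0.0021). In DMSO of day 4 it had 15.63, 15.85 and 16.01 RPKM in HMLE-TWIST1 and 18.9, 19.2 and 18.9 RPKM in HMLE, a change of -0.29 (SE 0.07, adjusted p = 0.00146). Neither pair overlapped, but the second change was -0.07 (adjusted p = 0.352) when libraries were scaled by their totals alone. In scramble of day 4 the change of -0.18 (adjusted p = 0.019) turned to 0.20 (adjusted p = 0.0292) with that scaling, and its call was lost without HMLE scramble library 2 or 3 or HMLE-TWIST1 scramble library 3 (adjusted p 0.0638 to 0.125) and on the deposited log2 values (0.134). In DMSO of day 2 the groups overlapped (adjusted p = 0.508).

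Knockdown raised TNFRSF10B in both lines at day 2, and its changes at day 4 did not pass. At day 2 HMLE-TWIST1 knockdown cells had 16.9, 16.8 and 15.9 RPKM, against 13.35, 12.50 and 13.02 RPKM in scramble, a rise of 0.35 (SE 0.06, adjusted p = 5e-04). HMLE knockdown cells had 14.0, 13.6 and 14.7 RPKM, against 10.5, 10.7 and 11.8 RPKM in scramble, a rise of 0.36 (SE 0.06, adjusted p = 0.000186). The groups did not overlap in either line, and the difference between the lines was -0.01 (95% interval -0.19 to 0.17). At day 4 the changes were 0.04 in HMLE-TWIST1 and 0 in HMLE, and the groups overlapped. The day 4 effect minus the day 2 effect was -0.33 in HMLE-TWIST1 (adjusted p = 0.00764) and -0.42 in HMLE (adjusted p = 0.00122). Scramble cells themselves had more TNFRSF10B at day 4, by 0.46 in HMLE-TWIST1 and 0.87 in HMLE.

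With chaetocin, TNFRSF10B of libraries 2 and 3 lay above every DMSO library at each dose, and library 1 did not at any dose. At 500 nM it had 13.96, 23.97 and 29.69 RPKM, against 16.5, 13.7 and 12.8 RPKM in DMSO. The changes of 0.23, 0.39, 0.51 and 0.57 at 100, 150, 200 and 500 nM did not pass, except that the last was 0.79 (adjusted p = 0.0263) with scaling by library totals. Without the 4 libraries numbered 1 they were 0.47, 0.62, 0.73 and 0.87, and all 4 passed (adjusted p 0.026, 0.00367, 0.000905 and 0.00012). Leaving these out, a choice made after seeing the data, kept only libraries above DMSO, so these calls are descriptive. After the washout the change was 0.07 (adjusted p = 0.467). TNFRSF10B lies on the opposite strand to RHOBTB2, which had 63 to 411 reads where TNFRSF10B had 547 to 1603. Whether reads were counted by strand is not given in the sources used here, so reads of the overlap cannot be told apart.

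CFLAR, the c-FLIP gene, was lower in HMLE-TWIST1 than in HMLE and fell further after the 80 nM washout, while no knockdown changed it past the threshold. The washout cells had 2.62, 2.73 and 2.92 RPKM, against 4.23, 4.38 and 4.90 RPKM in DMSO of day 4. All treated libraries were below DMSO, and the change was -0.70 (SE 0.07, adjusted p = 6.62e-06). Doses of 100 to 500 nM for 48 h gave changes of -0.38 to -0.29 that did not pass, with 2.13, 3.98 and 5.18 RPKM at 500 nM and 3.82, 5.23 and 3.91 RPKM in DMSO. Library 1 was again the lowest at each dose, and the changes without the libraries numbered 1 were -0.13 to 0.06.

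Knockdown gave CFLAR changes of -0.10 and 0.16 in HMLE-TWIST1 at day 2 and day 4 and 0.07 and 0.17 in HMLE, with overlapping groups each time. The 95% interval of the HMLE-TWIST1 day 4 change was -0.09 to 0.42. Between the lines in DMSO of day 4 HMLE-TWIST1 had 4.23, 4.38 and 4.90 RPKM and HMLE 15.4, 13.8 and 14.6 RPKM, a change of -1.72 (SE 0.07, adjusted p = 2.31e-11). The change was -1.83 in scramble of day 4 (adjusted p = 6.97e-09), -1.02 in scramble of day 2 (adjusted p = 0.000414) and -1.04 in DMSO of day 2 (adjusted p = 0.0168). No groups overlapped, but the DMSO day 2 call was lost without HMLE library 1 or 2 or HMLE-TWIST1 library 1 or 3 (adjusted p 0.0511 to 0.0633). Its SE of 0.33 also drew on the chaetocin libraries in the same fit. Over all alternative limma fits its adjusted p was 1.54e-05 to 0.0633. HMLE scramble had more CFLAR at day 4 than at day 2, by 0.82 (adjusted p = 0.000419), and HMLE-TWIST1 scramble differed by 0.03. CFLAR overlaps the antisense CFLAR-AS1, with 0 to 39 reads, and the pseudogene IMPDH1P10, with 2 to 70 reads, where CFLAR had 466 to 3789.

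CASP8, the initiator caspase of the receptor complex, rose with knockdown in HMLE at both days and in HMLE-TWIST1 at day 4. HMLE knockdown cells at day 4 had 6.92, 6.50 and 6.23 RPKM, against 4.79, 3.01 and 4.05 RPKM in scramble, a rise of 0.76 (SE 0.13, adjusted p = 0.000327). HMLE-TWIST1 knockdown cells at day 4 had 5.42, 4.91 and 5.003 RPKM, against 3.53, 3.64 and 4.05 RPKM in scramble, a rise of 0.47 (SE 0.13, adjusted p = 0.00792). Neither pair overlapped. At day 2 HMLE knockdown gave 7.93, 8.27 and 5.20 RPKM and scramble 4.93, 3.39 and 3.71 RPKM. The groups did not overlap, and the rise of 0.82 (SE 0.18, adjusted p = 0.00478) had an adjusted p of 0.0851 when only the compared groups were fitted.

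In HMLE-TWIST1 at day 2 CASP8 groups overlapped, at 3.89, 4.51 and 3.97 RPKM with knockdown and 4.25, 4.002 and 3.96 RPKM with scramble (change 0.02). The day 2 effect in HMLE-TWIST1 minus that in HMLE was -0.80 (SE 0.25, adjusted p = 0.0606), with an adjusted p of 0.0372 when the library number was fitted as a block, 0.0306 with scaling by library totals and 0.000721 without HMLE knockdown library 3. HMLE-TWIST1 had less CASP8 than HMLE in DMSO, with a change of -0.81 at day 2 (adjusted p = 0.00226) and -0.45 at day 4 (adjusted p = 1e-04). In scramble the lines overlapped at both days, and the change of -0.07 at day 4 did not pass. It was 0.31 (adjusted p = 0.018) when libraries were scaled by their totals alone and -0.23 (adjusted p = 0.032) without HMLE scramble library 2. HMLE had 8.04, 8.33 and 7.39 RPKM in DMSO of day 2 and 4.93, 3.39 and 3.71 RPKM in scramble of day 2. These levels come from separate parts of the table and were not tested against each other. Chaetocin changed CASP8 by -0.04 to 0.08 at 100 to 500 nM and by -0.12 after the washout, and none passed. Without the libraries numbered 1 the changes at 100 to 500 nM were 0.14 to 0.22, and none passed.

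CASP4, the inflammatory caspase, rose with knockdown in HMLE at both days and in HMLE-TWIST1 at day 4. HMLE-TWIST1 knockdown cells at day 4 had 11.4, 11.5 and 11.9 RPKM, against 7.61, 7.43 and 7.29 RPKM in scramble, a rise of 0.66 (SE 0.05, adjusted p = 1.59e-08). HMLE knockdown cells at day 4 had 25.9, 26.9 and 26.0 RPKM, against 18.7, 18.6 and 18.3 RPKM in scramble, a rise of 0.51 (SE 0.05, adjusted p = 8.37e-07). At day 2 HMLE knockdown had 25.7, 24.7 and 24.7 RPKM and scramble 18.3, 20.6 and 19.2 RPKM, a rise of 0.38 (SE 0.07, adjusted p = 0.00085). None of these 3 pairs overlapped.

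At day 2 in HMLE-TWIST1 the CASP4 groups overlapped, at 6.75, 8.33 and 7.76 RPKM with knockdown and 6.11, 6.75 and 6.97 RPKM with scramble. The change of 0.20 had an adjusted p of 0.0779, of 0.0462 with a block for the library number and of 0.0431 with scaling by library totals. The effect in HMLE-TWIST1 was 0.44 larger at day 4 than at day 2 (SE 0.08, adjusted p = 0.000302), and in HMLE it differed by 0.07 (95% interval -0.10 to 0.25). CASP4 was lower in HMLE-TWIST1 than in HMLE in each control setting (changes of -1.55 to -1.30), with 7.21, 7.05 and 7.74 RPKM in HMLE-TWIST1 and 16.5, 17.2 and 20.3 RPKM in HMLE for DMSO of day 2. Even the HMLE-TWIST1 knockdown of day 4, its highest group at 11.6 ± 0.231 RPKM (n = 3), lay below every HMLE library.

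Chaetocin at 100 to 500 nM changed CASP4 by -0.02 to 0.21, and the groups overlapped DMSO. At 500 nM it had 6.39, 8.99 and 11.2 RPKM, against 7.21, 7.05 and 7.74 RPKM in DMSO. Library 1 lay below DMSO and library 3 above it at each dose. Without the libraries numbered 1 the changes were 0.21, 0.35, 0.35 and 0.42, and the last, at 500 nM, passed (adjusted p = 0.0326). After the washout CASP4 had 6.44, 6.54 and 6.83 RPKM, against 7.52, 7.16 and 8.70 RPKM in DMSO. All treated libraries were below DMSO, but the change of -0.23 (SE 0.08, adjusted p = 0.0304) was lost without DMSO library 3 or any of the 3 treated libraries (adjusted p 0.0508 to 0.181), was -0.13 (adjusted p = 0.224) with scaling by library totals and -0.22 (0.0605) on the deposited log2 values.

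With library number as a block, the slope over dose passed for 4 members rather than 1. Over all genes 2968 of 18059 passed without the block and 6658 with it, so a gain in calls was not particular to the members. TNFRSF10A, TNFRSF10B (0.13 per doubling, adjusted p = 0.0163) and CASP4 (0.09, adjusted p = 0.028) had rising slopes, and TNFSF10 a falling one.

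The order of the 17 group means put HMLE knockdown of day 4 first for TNFSF10 (238 ± 26.0 RPKM), TNFRSF10A (12.8 ± 0.527 RPKM) and CASP4 (26.3 ± 0.557 RPKM), and HMLE DMSO first for CFLAR (day 4, 14.6 ± 0.756 RPKM) and CASP8 (day 2, 7.92 ± 0.48 RPKM). For TNFRSF10B 500 nM chaetocin in HMLE-TWIST1 came first (22.5 ± 7.97 RPKM). Of 16 neighbouring pairs in that order, library ranges overlapped in 11 for TNFSF10 and CASP4, 13 for TNFRSF10A, 14 for CFLAR and 15 for TNFRSF10B and CASP8. Over the 17 group means of log2 CPM, CASP4 and CFLAR had a Pearson r of 0.91, CASP4 and TNFRSF10A 0.90, and TNFSF10 and CASP4 0.88. TNFRSF10B had values between -0.16 and 0.13 with the other 5 members. These are descriptions: the groups share lines, parts of the table and library scaling.

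Among 11849 genes, the 3 with group means most like TNFSF10 over the 17 groups included AGRN and BAZ2A (r = 0.982 each). For TNFRSF10A they were PARD6B (0.982), SQRDL (0.98) and EPHA2 (0.976), and for CFLAR MALAT1 (0.98), KIAA0247 (0.978) and PLXNB2 (0.973). CASP4 was closest to NAPB (0.991), TRAFD1 (0.987) and RHPN2 (0.977). TNFRSF10B was closest to RIPK2 (0.892), ANKRA2 (0.873) and RRM2B (0.857), and CASP8 to THUMPD2 (0.849), L3MBTL3 (0.833) and GALNT14 (0.807). These too carry the difference between the lines.

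The other genes of the pathway were 75 genes in 9 lists, of which 68 to 70 were tested per comparison. With knockdown at day 4, 34 of 68 rose and 10 fell in HMLE-TWIST1 (64.7% passed, against 38.3% of all genes), and 28 rose and 5 fell in HMLE (48.5%, against 26.5%). Their median change was 0.30 in HMLE-TWIST1 and 0.22 in HMLE, where the median over all genes was 0.02 and 0.01. With 500 nM chaetocin 21 of 69 rose and 20 fell (59.4%, against 50.1%; median 0, all genes 0.02), and without the libraries numbered 1 23 of 70 rose and 22 fell (64.3%, against 54% of all genes). After the washout 15 of 68 rose and 19 fell (50%, against 36.5%; median -0.02, all genes 0). Between the lines in scramble of day 4, 20 of 68 were higher and 42 lower in HMLE-TWIST1 (91.2%, against 74.3%; median -0.52, all genes -0.01). These lists were chosen with earlier results of these data known. Each 500 nM change named for a list gene kept its direction and its call without the libraries numbered 1, except that of CASP10.

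Among 14 regulators of TRAIL and its receptors, 6 rose and 3 fell with knockdown in HMLE-TWIST1 at day 4 (38.3% of all genes passed), and 6 rose and 2 fell in HMLE (26.5%). IRF7, an interferon regulatory factor, rose by 4.24 in HMLE-TWIST1 and 3.51 in HMLE. With 500 nM chaetocin IRF1, another interferon regulatory factor, rose to 15.7 ± 3.37 RPKM against 2.17 ± 0.204 RPKM in DMSO (2.80, SE 0.21, adjusted p = 1.08e-07), and after the washout by 1.92. FOXO3, a forkhead factor, fell by 0.82 at 500 nM. Between HMLE-TWIST1 and HMLE in scramble of day 4 RELA, an NF-kB subunit, changed by -2.04.

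The decoy receptor TNFRSF10D binds TRAIL without passing on a full death signal, and it fell with knockdown at day 4. It had 3.46 ± 0.0958 RPKM in HMLE-TWIST1 knockdown cells at day 4 and 7.02 ± 0.535 RPKM in scramble, a fall of 0.99 (SE 0.10, adjusted p = 4.41e-07), and it fell by 1.30 in HMLE. With 500 nM chaetocin it had 27.2 ± 5.05 RPKM, against 6.63 ± 0.426 RPKM in DMSO, a rise of 1.99 (SE 0.25, adjusted p = 1.06e-05), while after the washout the groups overlapped and the change was 0.13 (adjusted p = 0.308). The soluble decoy TNFRSF11B fell by 1.55 at 500 nM and was 5.77 higher in HMLE-TWIST1 than in HMLE scramble cells of day 4 (40.6 ± 0.834 against 0.692 ± 0.195 RPKM). TNFRSF10C did not pass the filter on low reads in the knockdown comparisons within a day. Of the other death ligands and receptors, 3 of 7 tested rose and 1 fell with knockdown in HMLE-TWIST1 at day 4 (38.3% of all genes passed). FAS, the receptor of FAS ligand, rose by 0.96 in HMLE-TWIST1 and 0.74 in HMLE, and the TNF receptor TNFRSF1A fell by 1.01 with 500 nM chaetocin and by 0.62 after the washout.

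In the receptor complex and its adaptors, 2 of 8 genes rose and 2 fell with knockdown in HMLE-TWIST1 at day 4 (38.3% of all genes passed). CASP10, an initiator caspase that neighbours CASP8 and CFLAR on chromosome 2, rose by 1.27 in HMLE-TWIST1 and 1.07 in HMLE, and fell by 0.73 with 500 nM chaetocin (adjusted p = 0.0361), a call that was lost without the libraries numbered 1 (-0.40, adjusted p = 0.15). Between HMLE-TWIST1 and HMLE scramble cells it changed by -2.77, and FADD by -1.29 (10.1 ± 0.646 against 24.7 ± 3.47 RPKM). The kinase RIPK1 rose by 0.70 with knockdown in HMLE-TWIST1. Of the other caspases 4 of 7 rose with knockdown at day 4 in HMLE-TWIST1 (38.3% of all genes passed) and in HMLE (26.5%). With 500 nM chaetocin 3 of 7 fell (50.1%) and after the washout 3 of 7 (36.5%), shares near those of all genes. CASP1, the caspase of the inflammasome, rose by 1.24 and 0.98 in HMLE-TWIST1 and HMLE knockdown cells and fell by 0.65 after the washout.

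Of 12 pyroptosis and inflammasome genes, 8 rose and 1 fell with knockdown in HMLE-TWIST1 at day 4 (38.3% of all genes passed), and 4 rose in HMLE (26.5%). With 500 nM chaetocin 4 rose and 7 fell (50.1%). GBP1, a guanylate-binding protein that acts with CASP4 at bacterial membranes, had 74.5 ± 1.81 RPKM with knockdown and 13.2 ± 0.314 RPKM with scramble in HMLE-TWIST1, a rise of 2.52, and rose by 2.94 in HMLE. CARD8, an inflammasome sensor, fell by 1.46 with 500 nM chaetocin, and GSDMC, a gasdermin, rose by 2.49. IL18, a cytokine cut by inflammatory caspases, had 0.0855 ± 0.0296 RPKM in HMLE-TWIST1 scramble cells of day 4, from 9 reads in all 3 libraries together, and 62.7 ± 11.9 RPKM in HMLE. The necroptosis effector MLKL rose by 2.30 in HMLE-TWIST1 and 2.12 in HMLE at day 4, within a list of which 4 of 4 tested genes rose in HMLE-TWIST1 (38.3%) and 3 rose and 1 fell in HMLE (26.5%).

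Among 8 tested inhibitors of apoptosis and their antagonists, 4 rose and 1 fell with knockdown in HMLE-TWIST1 at day 4 (38.3%), and 3 rose in HMLE (26.5%). XAF1, an antagonist of XIAP, had 20.5 ± 3.99 RPKM with knockdown and 0.628 ± 0.172 RPKM with scramble in HMLE-TWIST1, a rise of 5.01 (SE 0.38, adjusted p = 6.25e-06). In HMLE at day 4 XAF1 rose by 6.46 (SE 0.38, adjusted p = 2.04e-06). BIRC3, which encodes cIAP2, rose by 1.52 in both lines and by 3.47 with 500 nM chaetocin. TNFAIP3, the NF-kB inhibitor A20, rose by 1.51 in HMLE-TWIST1 and 0.68 in HMLE knockdown cells and by 3.36 with 500 nM. In the mitochondrial arm, APAF1, the scaffold of the apoptosome, rose by 0.85 in HMLE-TWIST1 and 0.67 in HMLE, and BCL2L11, which encodes the killer protein BIM, rose by 1.12 with 500 nM chaetocin. The TNFSF10 rise at day 4 in HMLE-TWIST1 (4.09) was larger than those named here for the same cells other than XAF1 (5.01) and IRF7 (4.24).

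**Figure D4:**
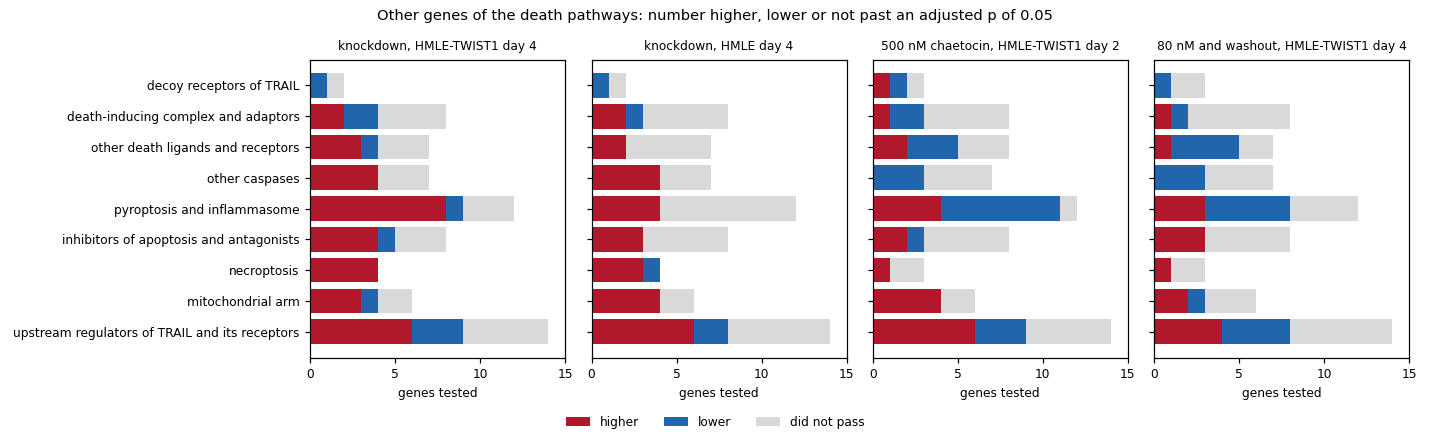
Number of tested genes of 9 pathway lists that were higher, lower or did not pass an adjusted p of 0.05 in 4 comparisons. Knockdown at day 4 has more higher than lower genes in HMLE-TWIST1 (34 and 10 of 68) and HMLE (28 and 5 of 68), while 500 nM chaetocin (21 higher, 20 lower) and the 80 nM washout (15 higher, 19 lower) hold both directions.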

How the data were processed

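The authors deposited a table of log2 RPKM for 51 named libraries, made per the submitters' processing notes with STAR, HTSeq and the genome hg19 (GRCh37); versions, and whether counting used strand, are not given in the sources used here. RNA was DNase-treated and made into stranded total RNA libraries after ribosomal depletion, per the labels' protocols. The table was read as 3 parts (DMSO and 80 nM, duplexes, 100 to 500 nM), set by which genes each library lacks. Scaling and offset were worked out from the values of each part. That the parts were processed separately is inferred from this and not stated in the labels. A further table with 81 unnamed columns was not used.

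Reads were recovered from the steps of the values, and 100.0% came out whole (tolerance 0.01). The design assumed counts; since the named table is in log2 units, the test was limma 3.58.1 (R 4.3.3, statmod 1.5.0, intensity trend, robust) on log2 CPM of the recovered reads with a prior count of 2. Scaling used TMM factors (trimming 30% of log ratios and 5% of levels). Genes needed the equivalent of 10 reads in 3 libraries and 15 in all. Each comparison's p-values were adjusted by Benjamini-Hochberg over its whole gene set (threshold 0.05). RPKM levels were scaled over all 51 libraries together. Depth was 7897060 to 15662385 reads (median 12354838).

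There were 20 comparisons of groups of 3, and the size of a difference of n = 3 groups rests on those libraries alone. Except for the slope, each was fitted with all groups of its experiment and day, or of both days where days were compared. These groups share 1 estimate of the spread, so an SE and p-value also rest on libraries outside the groups compared. Replicate numbers paired the samples within the dose libraries only: over 18 pairs of one number, deviations from group means had correlations of 0.2 to 0.71. Pairs of different numbers reached up to 0.35, so the ranges overlapped. The scripts were tested on simulated data. Members, gene lists and tests were chosen with earlier results of these data known. Named genes were all members, TWIST1, SUV39H1 and SUV39H2, up to 2 genes per list with the smallest adjusted p in 5 comparisons if their average reached 2 in log2 CPM, and the 3 genes most like each member; some genes named by this rule are not reported here. Alternatives covered scaling, filter, prior count, weights, groups in the fit, the deposited values, a block and each library left out.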

Additional observations from a re-analysis of the deposited data

Results flagged for a closer look

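These results were singled out because an effect differed between lines or between days by a test of the difference itself (limma, adjusted p over all genes). The knockdown effect on TNFSF10 in HMLE-TWIST1 minus that in HMLE was 1.2 at day 2 (SE 0.27, adjusted p = 0.02) and 2.98 at day 4 (SE 0.16, adjusted p = 4.82e-08). The day 4 effect minus the day 2 effect in HMLE-TWIST1 was 2.22 for TNFSF10 (SE 0.24, adjusted p = 1.62e-06), 0.44 for CASP4 (SE 0.08, adjusted p = 0.000302) and -0.33 for TNFRSF10B (SE 0.09, adjusted p = 0.00764). In HMLE it was -0.42 for TNFRSF10B (SE 0.09, adjusted p = 0.00122). Groups of 3 were not screened for outlying libraries.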

How the results depend on the processing

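Of 1860 recomputed values of the 6 genes, 1702 kept their direction and side of the threshold, 60 lost a call, 26 gained one, 2 reversed and 70 moved without a call. Both reversals came with library totals as the only scaling, for HMLE-TWIST1 against HMLE in scramble of day 4: TNFRSF10B was 0.20 and CASP8 0.31 there, where that scaling shifted the median of all genes by 0.38. The number of members called also moved. Without the 4 dose libraries numbered 1 (chosen after seeing the data) it was 2 at 100 nM, 2 at 150 nM, 2 at 200 nM, 4 at 500 nM and 3 for the slope. Of all genes 54% passed at 500 nM without these libraries and 50.1% with them, and calls for the slope over all genes rose too, as given below. With voom weights it was 0 at 150 nM, 1 at 500 nM, 0 for the slope and 0 for the line difference of knockdown at day 2. It was 0 at 150 nM with median of ratios scaling, 0 for the slope with a prior of 0.5 or the deposited log2 values, and 2 for the day 2 line difference with library totals. With a replicate block it was 4 for the slope and 2 for the line difference at day 2 and at day 4; 114 of 120 values kept their call with the block, 6 gained one and 0 lost one.

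With single libraries left out the number of members called was 0 to 1 at 150 nM, 1 to 2 at 500 nM, 0 to 1 for the slope, 3 to 5 for knockdown in HMLE at day 2, 0 to 2 and 1 to 2 for the line difference of knockdown at day 2 and day 4, and 2 to 4 between days in HMLE-TWIST1 scramble. Over all genes the slope called 2968 genes, against 6658 with the block, 4485 without the libraries numbered 1, and 340 without 500 nM library 2, 1430 without 500 nM library 3 and 1566 without 100 nM library 3. The cause of these moves was not tested. Library totals moved the higher share of calls by over 10 points in 12 comparisons, among them 65.4% between lines in scramble of day 4, 72.4%, 74.0%, 72.8% and 68.7% at 100, 150, 200 and 500 nM, and 65.3% after the washout. The deposited values were not run for doses against DMSO, which join parts, nor a fit of only the compared groups for the slope.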
